A study of Mus musculus with 5 samples.

Results

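Metallothionein and antioxidant transcripts were compared between stromal cells of the mouse femoral marrow that descend from 2 fetal sources. The 9 genes described are the metallothioneins *Mt1* and *Mt2*, the superoxide dismutases *Sod1*, *Sod2* and *Sod3*, the peroxide-removing enzymes *Gpx3* and *Cat*, and the stress-induced enzymes *Hmox1* and *Nqo1*. They were taken by name from the 30046 features of the count table. All 9 had a row there, and all 9 passed the filter on low counts that left 10093 genes for testing. *Mt2* passed only through the libraries in which it was high.

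The cells came from femurs at postnatal day 21 (P21). Dlx5CE-E12.5 cells came from mice of genotype Cxcl12(GFP/+), Dlx5(CreER/+), R26R(tdTomato/+) and gave 3 libraries, and Fgfr3CE-E12.5 cells came from Cxcl12(GFP/+), Fgfr3-iCreER, R26R(tdTomato/+) mice and gave 2 libraries, which the labels number 2 and 3. Both groups carry a GFP gene at an allele of *Cxcl12*, and both received tamoxifen once, on embryonic day 12.5 (E12.5), which switches on tdTomato for good in cells with an active creER and in all their progeny. The *Dlx5* driver marks fetal perichondrial cells, and the *Fgfr3* driver, a transgene, marks fetal chondrocytes. GFP-high, tdTomato-positive cells were sorted, so a library holds whatever passed that gate, pooled from littermates. Per the paper's methods, the Dlx5CE-E12.5 libraries were read on a NovaSeq in long paired reads and the Fgfr3CE-E12.5 libraries on a HiSeq in short single reads, so that lineage and sequencing cannot be told apart in any value below.

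Metallothioneins are small cysteine-rich proteins that bind zinc and copper and can scavenge oxidants. The metal-sensing factor MTF1 switches on their genes through metal response elements, and glucocorticoids and inflammatory signals raise them as well. Superoxide dismutases turn superoxide into hydrogen peroxide, which catalase and the glutathione peroxidases then remove. The factor NRF2 induces *Hmox1*, *Nqo1* and the genes of glutathione supply through antioxidant response elements, and KEAP1 with CUL3 marks NRF2 for destruction.

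Because the metallothionein genes showed the widest difference between the lineages, their promoters are shown, from RefSeq on build GRCm38.p6. Windows of 250 bases before to 50 bases after the start were matched for 7 of the 9 genes. Both genes lie on the forward strand of chromosome 8, 5513 bases apart, with *Mt2* first. The *Mt1* window is chr8:94178839-94179138 and the *Mt2* window is chr8:94172368-94172667. Capitals of 7 letters mark the metal response core, searched as TGCACNC and TGCGCNC on both strands, and the capitals of 9 letters in *Mt2* mark the antioxidant response core, searched as TGACNNNGC on both strands.
Mt1: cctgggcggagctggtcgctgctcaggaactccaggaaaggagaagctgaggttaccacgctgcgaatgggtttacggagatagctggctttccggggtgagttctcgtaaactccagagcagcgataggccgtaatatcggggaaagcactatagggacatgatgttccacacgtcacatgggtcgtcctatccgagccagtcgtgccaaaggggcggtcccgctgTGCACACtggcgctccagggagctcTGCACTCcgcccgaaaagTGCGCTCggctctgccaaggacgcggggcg
Mt2: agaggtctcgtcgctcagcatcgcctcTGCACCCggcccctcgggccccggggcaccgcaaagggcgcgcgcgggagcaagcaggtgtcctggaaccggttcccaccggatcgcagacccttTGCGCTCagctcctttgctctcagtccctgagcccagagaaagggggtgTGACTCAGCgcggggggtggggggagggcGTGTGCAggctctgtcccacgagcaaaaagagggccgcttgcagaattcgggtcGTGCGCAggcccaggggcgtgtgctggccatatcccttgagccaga
The *Mt1* window holds 3 metal response cores and the *Mt2* window 4, none overlapping another. Of all 32851 RefSeq windows of this length, 25.7% hold at least 1 such core, 1.31% hold at least 3 and 0.295% hold at least 4. The other 5 windows (*Gpx3*, *Sod1*, *Sod2*, *Cat* and *Nqo1*) hold no match to these letters. The antioxidant response core is found in 12.4% of all windows and, among the 7 windows, in those of *Mt2* and *Sod1*. These are matches of letters, and no binding was measured.

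Levels are given as CPM, counts scaled to a fixed total, with TMM-normalized library sizes, and log2 fold changes are Fgfr3CE-E12.5 over Dlx5CE-E12.5, so a negative value means a higher level in Dlx5CE-E12.5 cells. A gene is called at an adjusted p under 0.05 in edgeR's quasi-likelihood test with a log2 fold change beyond 1 in either direction. Of the 9 genes, 5 were called higher in Dlx5CE-E12.5 cells (*Mt1*, *Mt2*, *Sod1*, *Sod2* and *Gpx3*), 4 were not called, and 0 were called higher in Fgfr3CE-E12.5 cells by edgeR, by DESeq2 or at an unadjusted p under 0.05. Over all genes tested, 13.1% were called higher in Dlx5CE-E12.5 cells and 16.4% higher in Fgfr3CE-E12.5 cells. For 8 of the 9 genes every Dlx5CE-E12.5 library lay above both Fgfr3CE-E12.5 libraries, which was the case for 34.1% of all genes, while the opposite order, found for 34.8% of all genes, was found for none of the 9. The median log2 fold change of the 9 was -1.25, beside 0.01 for all genes tested. In such bulk samples, fewer cells of a type and less RNA per cell cannot be told apart. The p-values set the difference between the groups against the spread between these pooled libraries, estimated with the help of all genes tested. They do not separate lineage from sequencing.

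**Figure D1:**
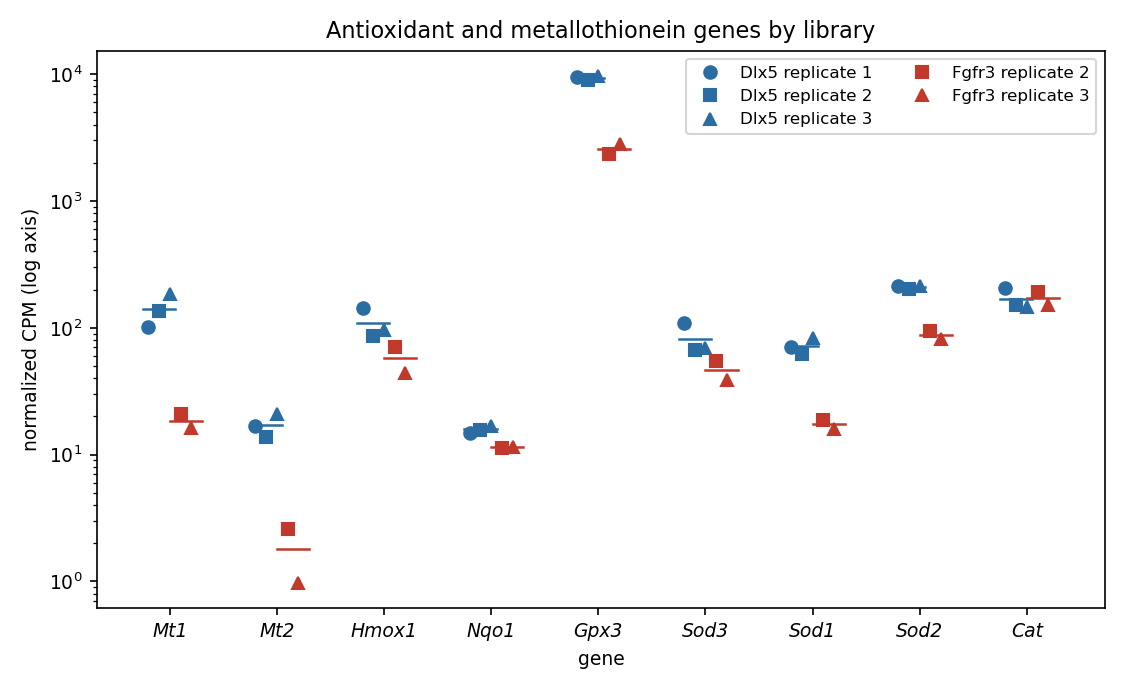
Normalized CPM of the 9 genes in each library, on a log axis. Blue marks the 3 Dlx5CE-E12.5 libraries, red the 2 Fgfr3CE-E12.5 libraries, the marker shape gives the replicate number, and lines are group means. All genes but *Cat* have the blue points above the red, and *Mt2* in Fgfr3CE-E12.5 replicate 3 is the lowest point at 0.979 CPM.

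*Mt1* (ENSMUSG00000031765, 8:94179082-94180327, forward strand) had 102, 134 and 186 CPM in Dlx5CE-E12.5 replicates 1 to 3 and 20.8 and 16.1 CPM in Fgfr3CE-E12.5 replicates 2 and 3. The groups did not overlap, and the lowest Dlx5CE-E12.5 library stood well clear of the highest Fgfr3CE-E12.5 library. The means were 141 ± 42.5 CPM (SD, n = 3) and 18.5 ± 3.30 CPM (SD, n = 2), a level 7.62-fold higher in Dlx5CE-E12.5 cells (log2 fold change -2.93, SE 0.30, edgeR adjusted p = 0.00038). *Mt2* (ENSMUSG00000031762, 8:94172664-94173568, forward strand) was 16.8, 13.7 and 21.0 CPM against 2.60 and 0.979 CPM. It was the gene of the 9 with the largest fold, 9.59-fold higher in Dlx5CE-E12.5 cells, and again the groups did not overlap (log2 fold change -3.26, SE 0.48, edgeR adjusted p = 0.00168). It was also the least even within a lineage, since the Fgfr3CE-E12.5 libraries differed from each other by 2.65-fold, on 152 and 59 counts.

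*Mt1* had more counts than its neighbour in every library. The ratio of *Mt1* to *Mt2* counts was 6.05, 9.79 and 8.87 in Dlx5CE-E12.5 cells and 8.0 and 16.5 in Fgfr3CE-E12.5 cells, so the ratios of the lineages overlapped while both levels differed. *Mt2* shares 45.5% of its 50-base windows with Gm45774, an antisense gene that overlaps 432 of its exon bases, and the strand setting of the counting was not stated. Gm45774 itself had 77, 45 and 55 counts against 13 and 0, and with its counts added to those of *Mt2* the log2 fold change was -3.36. *Mt1* shared no 50-base window with another gene.

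Over the 5 libraries, the genes with the pattern closest to *Mt1* were *Kdm6b* (0.104), *Slc6a6* (0.157) and *Tns1* (0.157). The values are root mean square differences of centred log2 CPM, with 0.5 CPM added before the logarithm. *Kdm6b* encodes a histone demethylase, *Slc6a6* the taurine transporter and *Tns1* the adhesion protein tensin. Closest to *Mt2* were *Ston1* (0.170), *Spry2* (0.187) and *Trarg1* (0.189), of which *Spry2* encodes a feedback inhibitor of FGF signalling. Like *Mt2*, these passed the filter only through the Dlx5CE-E12.5 libraries. In Fgfr3CE-E12.5 replicates 2 and 3, *Ston1* was 1.95 and 0.714 CPM, *Spry2* 1.59 and 0.930 CPM and *Trarg1* 8.41 and 4.86 CPM. The log2 fold changes of the genes closest to *Mt1* or *Mt2* lay between -3.50 for *Spry2* and -2.71 for *Tns1*. With 5 libraries in 2 groups, such likeness is a description, and the points share the lineage contrast.

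The superoxide dismutases act in separate compartments, with *Sod1* in the cytosol, *Sod2* in mitochondria and *Sod3* outside the cell. *Sod1* (ENSMUSG00000022982, 16:90220754-90226329, forward strand) was 70.7, 61.9 and 82.9 CPM in Dlx5CE-E12.5 cells against 18.7 and 15.9 CPM in Fgfr3CE-E12.5 cells. The groups were far apart, with means of 71.9 ± 10.5 (SD, n = 3) and 17.3 ± 1.93 CPM (SD, n = 2) and a level 4.16-fold higher in Dlx5CE-E12.5 cells (log2 fold change -2.06, SE 0.19, edgeR adjusted p = 0.000258). *Sod2* (ENSMUSG00000006818, 17:13006846-13040063, forward strand) was 212, 201 and 215 CPM against 94.7 and 81.0 CPM. Its libraries were even within each lineage and did not overlap between them, and the level was 2.38-fold higher in Dlx5CE-E12.5 cells (log2 fold change -1.25, SE 0.14, edgeR adjusted p = 0.000538). Tested against a minimum fold of 2, *Sod2* was no longer called (edgeR glmTreat adjusted p = 0.0801).

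*Sod3* (ENSMUSG00000072941, 5:52363791-52371418, forward strand) was 110, 67.3 and 69.5 CPM in Dlx5CE-E12.5 cells and 54.4 and 39.0 CPM in Fgfr3CE-E12.5 cells. Dlx5CE-E12.5 replicate 1 stood above the other libraries, and the remaining 4 lay closer together than for *Sod1* or *Sod2* without overlap of the groups. The log2 fold change of -0.82 (SE 0.27, edgeR adjusted p = 0.0405) passed the p threshold and not the fold threshold, and without Fgfr3CE-E12.5 replicate 2 the gene was called at -1.08. The p threshold was lost without Dlx5CE-E12.5 replicate 1 (-0.55, edgeR adjusted p = 0.0722), without Fgfr3CE-E12.5 replicate 3 (-0.60, edgeR adjusted p = 0.184), with the replicate number as a block (-0.57, edgeR adjusted p = 0.0602), with library size alone (-0.63, edgeR adjusted p = 0.0821) and with limma on the rlog values (-0.49, adjusted p = 0.0657).

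Set against each other within a library, the 3 dismutases did not keep one proportion. Per kilobase of annotated exons, *Sod1* made up 26.1%, 29.1% and 34.3% of their summed level in Dlx5CE-E12.5 cells and 16.4% and 17.8% in Fgfr3CE-E12.5 cells, a share higher in every Dlx5CE-E12.5 library. *Sod3* made up 43.0%, 33.6% and 30.5% against 50.7% and 46.3%, lower in every Dlx5CE-E12.5 library, and the *Sod2* shares of 30.9%, 37.4% and 35.3% overlapped those of 32.95% and 35.9%. The shares depend on the length used, because the annotated exons of *Sod1* span 3970 bases and its principal transcript 641. With principal transcripts *Sod1* took 62.7%, 64.9% and 70.1% against 48.7% and 50.6%, and *Sod2* took 20.5%, 23.0% and 19.9% against 27.0% and 28.2%. The higher *Sod1* share and lower *Sod3* share of Dlx5CE-E12.5 cells were seen with either length. No test was made, since 3 against 2 libraries cannot reach 0.05 by permutation.

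**Figure D2:**
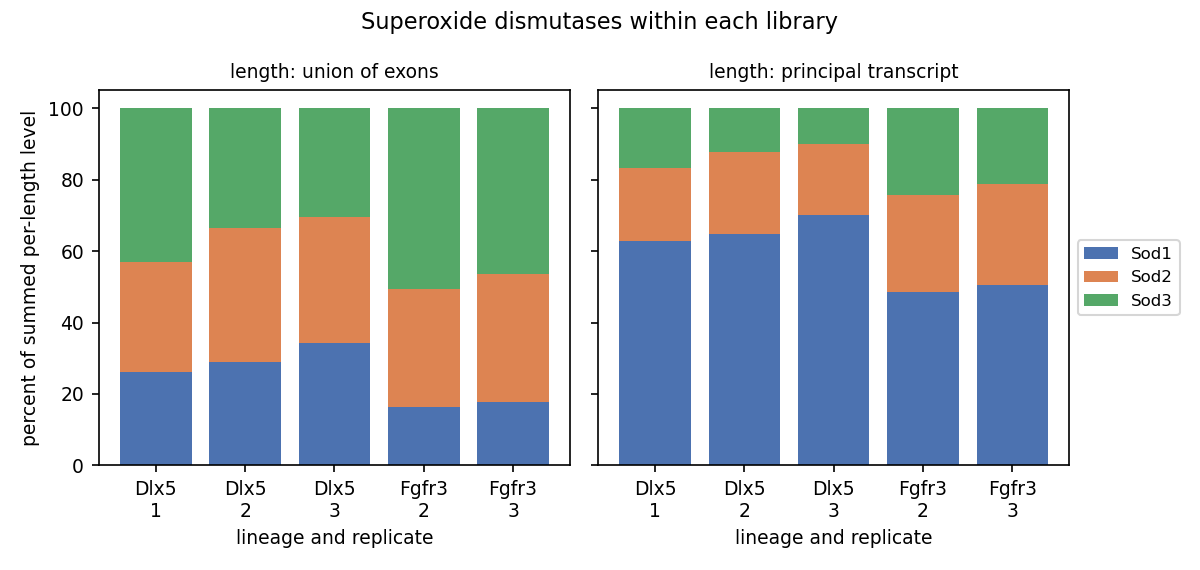
Shares of *Sod1*, *Sod2* and *Sod3* in their summed per-length level (percent, stacked bars) in each library, with length taken as the union of exons on the left and as the principal transcript on the right. On both sides the *Sod1* bars of the 3 Dlx5CE-E12.5 libraries are taller than those of the 2 Fgfr3CE-E12.5 libraries.

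The sequence of *Sod1* bears on its counts. Of its 50-base windows, 23.1% occur in the pseudogene copy Gm8566, of its 100-base windows 4.24% and of its 150-base windows 0%. Gm8566 held 248, 146 and 268 counts in Dlx5CE-E12.5 cells and 0 in both Fgfr3CE-E12.5 libraries, which per the methods were read in the shorter reads. Adding them to *Sod1* gave a log2 fold change of -2.23. The part of read length in the *Sod1* difference cannot be told apart from that of lineage.

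*Gpx3*, the secreted glutathione peroxidase and a selenoprotein, was the most abundant of the 9 genes per kilobase in every library. It (ENSMUSG00000018339, 11:54902453-54910377, forward strand) reached 9460, 8951 and 9657 CPM in Dlx5CE-E12.5 cells against 2336 and 2830 CPM in Fgfr3CE-E12.5 cells. The Dlx5CE-E12.5 libraries differed little among themselves and lay far above the others, with means of 9356 ± 365 (SD, n = 3) and 2583 ± 349 CPM (SD, n = 2), 3.62-fold higher (log2 fold change -1.86, SE 0.20, edgeR adjusted p = 0.000447). The transcript alone took 0.846%, 0.820% and 0.850% of all counts in Dlx5CE-E12.5 cells and 0.242% and 0.293% in Fgfr3CE-E12.5 cells. Among protein-coding genes and reporters it ranked 5, 3 and 3 by counts in the former and 26 and 24 in the latter.

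*Cat*, which encodes the peroxisomal enzyme catalase, was the exception among the 9. It (ENSMUSG00000027187, 2:103453849-103485160, reverse strand) was 205, 152 and 145 CPM in Dlx5CE-E12.5 cells and 193 and 151 CPM in Fgfr3CE-E12.5 cells. The groups overlapped, and the log2 fold change was 0.04 (SE 0.20, edgeR adjusted p = 0.897), with a sign that changed with the processing. Between the enzymes of peroxide removal, *Gpx3* thus differed by several fold while the difference of *Cat* was within its error.

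*Hmox1* and *Nqo1* are textbook NRF2 targets, the former opening the heme ring and the latter reducing quinones. *Hmox1* (ENSMUSG00000005413, 8:75093621-75100589, forward strand) was 144, 86.8 and 96.3 CPM against 70.5 and 44.0 CPM. The groups did not overlap, though the gap was small beside the spread within each, and the log2 fold change of -0.93 (SE 0.29, edgeR adjusted p = 0.0336) missed the fold threshold. Leaving out Dlx5CE-E12.5 replicate 2, Dlx5CE-E12.5 replicate 3 or Fgfr3CE-E12.5 replicate 2 gave -1.07, -1.01 and -1.31, each called. The p threshold was lost without Dlx5CE-E12.5 replicate 1 (-0.68, edgeR adjusted p = 0.0718), without Fgfr3CE-E12.5 replicate 3 (-0.63, edgeR adjusted p = 0.158), with the replicate number as a block (-0.71, edgeR adjusted p = 0.0589) and with library size alone (-0.75, edgeR adjusted p = 0.0620). *Nqo1* (ENSMUSG00000003849, 8:107388225-107403206, reverse strand) was 14.8, 15.8 and 16.9 CPM against 11.2 and 11.6 CPM. The groups did not overlap, and its log2 fold change of -0.47 (SE 0.20) did not pass the test (edgeR adjusted p = 0.0918).

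**Figure D3:**
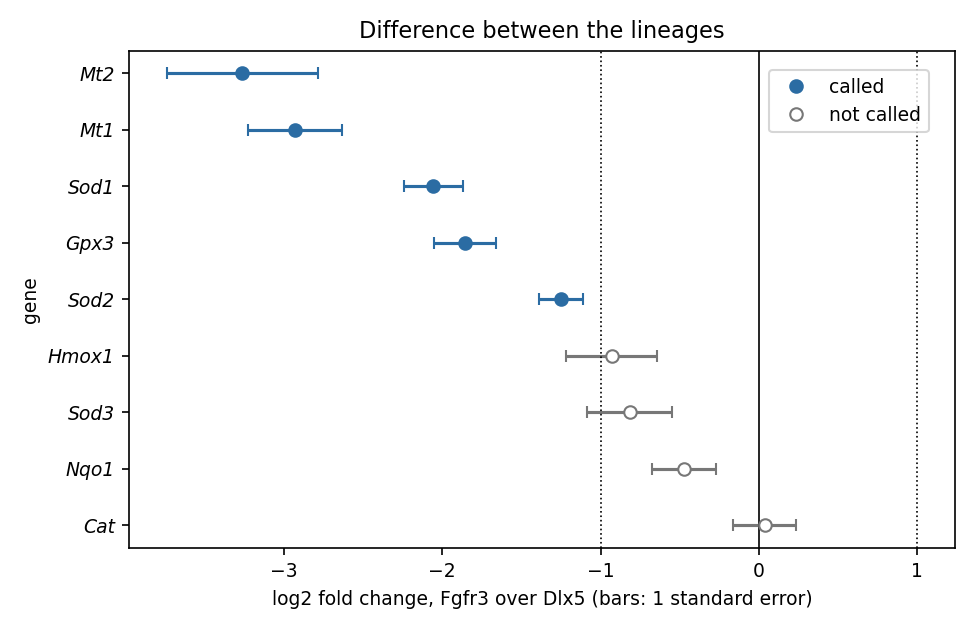
Log2 fold change of each gene, Fgfr3CE-E12.5 over Dlx5CE-E12.5 (horizontal axis; bars are 1 standard error), with filled points for called genes and dotted lines at the fold threshold. The called genes run from *Mt2* at -3.26 to *Sod2* at -1.25, and *Cat* lies at 0.04.

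Genes that share the chemistry or the control of these 9 were listed by role, 109 in all, of which 105 were in the counts and 93 were tested. By calls they did not lean the same way as the 9. Of the 93, 14 (15.05%) were called higher in Dlx5CE-E12.5 cells, beside 13.1% of all genes. Higher in Fgfr3CE-E12.5 cells were 19 (20.43%), beside 16.4% of all genes. Other measures leaned toward Dlx5CE-E12.5 cells. The median log2 fold change was -0.21, beside 0.01 for all genes tested. Every Dlx5CE-E12.5 library lay above for 40 of the 93, and every Fgfr3CE-E12.5 library for 32, beside 34.1% and 34.8% of all genes. With the p threshold alone, 29 were higher in Dlx5CE-E12.5 cells and 24 in Fgfr3CE-E12.5 cells, beside 2365 and 2520 of all 10093 genes. Whether this lean exceeds that of other gene lists was not tested.

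Of 9 tested genes of metal handling, edgeR called 1, higher in Fgfr3CE-E12.5 cells. That was *Slc30a1*, the zinc exporter that MTF1 also induces, at 6.32, 6.69 and 7.16 CPM against 13.7 and 14.7 CPM (log2 fold change 1.08, SE 0.22, edgeR adjusted p = 0.00649). Its direction was opposite to that of *Mt1* and *Mt2*, but it passed the filter only through the Fgfr3CE-E12.5 libraries, and it was not called against the 2-fold minimum (edgeR glmTreat adjusted p = 0.588) or with limma on the rlog values (0.91). *Mtf1* itself was 27.8, 27.4 and 24.0 CPM against 23.8 and 23.5 CPM, a log2 fold change of -0.16 (SE 0.16) that did not pass the test (edgeR adjusted p = 0.46). *Ccs*, the chaperone that loads copper onto SOD1, was 67.5, 66.9 and 65.4 CPM against 40.5 and 39.3 CPM, at -0.74 short of the fold threshold (edgeR adjusted p = 0.00358).

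The regulators of NRF2 were mixed. *Bach1*, the heme-sensing repressor of *Hmox1*, was 41.6, 56.6 and 67.2 CPM against 20.9 and 14.4 CPM (log2 fold change -1.64, SE 0.27, edgeR adjusted p = 0.00263), and *Maff*, a small MAF partner of both factors, was called in the same direction at -1.47. *Cul3* was 33.8, 33.1 and 31.7 CPM against 135 and 100.2 CPM, higher in Fgfr3CE-E12.5 cells at 1.84 (SE 0.16, edgeR adjusted p = 0.000231). *Nfe2l2*, which encodes NRF2, overlapped between the lineages with 0.25 (SE 0.15, edgeR adjusted p = 0.212), and *Keap1* was at 0.50, short of the fold threshold (edgeR adjusted p = 0.0190). The other 4 of the 9 tested regulators were not called.

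The other NRF2 targets went both ways. Of 15 tested, 7 were called higher in Fgfr3CE-E12.5 cells and 2 higher in Dlx5CE-E12.5 cells, and the median log2 fold change was 0.99. The 7 were *Gclc* and *Gclm*, the subunits of the rate-limiting enzyme of glutathione synthesis, *Srxn1* and *Txnrd1* of peroxiredoxin and thioredoxin recycling, and *G6pdx*, *Taldo1* and *Me1* of NADPH supply and the pentose phosphate pathway. *Gclc* differed most, with 13.4, 8.57 and 12.1 CPM against 68.2 and 95.7 CPM (log2 fold change 2.85, SE 0.24, edgeR adjusted p = 0.000192), and *Gclm* followed at 2.70. In the opposite direction, *Slc7a11*, which imports cystine for the same pathway, was 17.7, 16.2 and 13.6 CPM against 2.43 and 3.15 CPM (log2 fold change -2.50, SE 0.28, edgeR adjusted p = 0.000528). It passed the filter only through the Dlx5CE-E12.5 libraries. *Gsta4*, a transferase for lipid aldehydes, was at -1.44, or -0.99 and not called without Fgfr3CE-E12.5 replicate 3. Without that replicate *G6pdx* (0.79) and *Taldo1* (0.65) also lost their calls, as did *Txnrd1* (0.90) and *Me1* (edgeR adjusted p = 0.0574) without Fgfr3CE-E12.5 replicate 2. The ferritin genes *Ftl1* and *Fth1* were at -0.42 and -0.75 and were not called. Of the 50-base windows of *Ftl1*, 90.6% occur in other genes, and of its 150-base windows 70.0%. The part of read length in its value was not tested.

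Genes of glutathione recycling and conjugation also went both ways. Of 11 tested genes of glutathione synthesis and transfer, *Gstt1* (53.7, 61.5 and 73.5 CPM against 14.0 and 10.3 CPM, log2 fold change -2.37) and *Gstm2* (-1.44) were called higher in Dlx5CE-E12.5 cells. *Gsr*, glutathione reductase, was called higher in Fgfr3CE-E12.5 cells with 59.2, 79.0 and 97.4 CPM against 305 and 561 CPM (log2 fold change 2.46, SE 0.30, edgeR adjusted p = 0.000826). Of the 4 other glutathione peroxidases tested, edgeR and DESeq2 each called 0, while 3 had an unadjusted p under 0.05, all with higher values in Dlx5CE-E12.5 cells. Of all genes tested, 23.4% were higher in Dlx5CE-E12.5 cells at an edgeR adjusted p under 0.05 and any fold. At an unadjusted p the share of all genes is at least that. *Gpx8* and *Gpx7* of the endoplasmic reticulum were at -0.94 and -0.75, *Gpx4* at -0.57, and *Gpx1*, the cytosolic form abundant in blood cells, at 0.56. Of the 50-base windows of *Gpx4*, 68.9% occur in other genes, and of its 150-base windows 40.4%, in Gpx4-ps2. The part of read length in its value was not tested.

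Of 6 peroxiredoxins, *Prdx4*, the form of the secretory pathway, was called higher in Dlx5CE-E12.5 cells with 222, 268 and 290 CPM against 135 and 111 CPM (log2 fold change -1.08, SE 0.18, edgeR adjusted p = 0.00264), a call lost at -0.99 without Dlx5CE-E12.5 replicate 3 and at -0.94 without Fgfr3CE-E12.5 replicate 3. Of 9 genes of the thioredoxin system, *Glrx5*, a mitochondrial glutaredoxin of iron-sulfur cluster assembly, was called higher in Fgfr3CE-E12.5 cells with 7.86, 8.72 and 13.7 CPM against 102 and 167 CPM (log2 fold change 3.74, SE 0.31, edgeR adjusted p = 0.000172). Of the Dlx5CE-E12.5 libraries only replicate 3 reached the 10 CPM of the filter. Of 7 genes of heme and iron handling, edgeR and DESeq2 each called 0 in either direction, and 2 in each direction had an unadjusted p under 0.05. *Tfrc*, the transferrin receptor, was at 0.74 and *Cp*, ceruloplasmin, at -0.90 in that list.

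Of 5 tested selenoproteins and genes of selenoprotein synthesis, *Selenop* and *Selenow* were called higher in Dlx5CE-E12.5 cells. *Selenop*, the selenium carrier of plasma, was 1715, 1921 and 1811 CPM against 789 and 558 CPM (log2 fold change -1.43, SE 0.20, edgeR adjusted p = 0.00149), and *Selenow* was at -1.41. With limma on the rlog values neither reached the fold threshold (-0.98 and -0.95), and *Selenop* was also not called against the 2-fold minimum (edgeR glmTreat adjusted p = 0.0528). The synthesis genes *Sephs2*, *Secisbp2* and *Sepsecs* were not called.

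Among the genes that make superoxide, *Ncf1*, which encodes a cytosolic organizer of the phagocyte NADPH oxidase, was called higher in Fgfr3CE-E12.5 cells with 20.3, 23.5 and 17.0 CPM against 88.7 and 245 CPM (log2 fold change 3.04, SE 0.40, edgeR adjusted p = 0.00107). Its level was higher in Fgfr3CE-E12.5 replicate 3 than in replicate 2. *Cybb*, which encodes the catalytic subunit, was called in the same direction at 1.78. All 12 leukocyte markers listed were called higher in Fgfr3CE-E12.5 cells as well, and *Rac2* is in both lists. Whether leukocyte RNA accounts for the oxidase genes was not tested. *Xdh*, which encodes xanthine dehydrogenase, overlapped between the lineages at -0.23 (SE 0.30) and was not called.

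Of 11 tested genes of the FoxO, sestrin and glucocorticoid group, 5 were called higher in Dlx5CE-E12.5 cells and 2 higher in Fgfr3CE-E12.5 cells. *Zbtb16*, a glucocorticoid-induced zinc finger gene, was 12.9, 25.7 and 35.4 CPM against 3.61 and 1.34 CPM (log2 fold change -3.32, SE 0.60, edgeR adjusted p = 0.00396). It passed the filter only through the Dlx5CE-E12.5 libraries. *Foxo3* was 64.0, 99.6 and 129 CPM against 17.4 and 19.3 CPM (log2 fold change -2.41, SE 0.31, edgeR adjusted p = 0.000941). *Per1* (-2.07), *Sesn3* (-1.57) and *Sesn2* (-1.16) completed the 5. *Foxo1* at 1.52 and *Fkbp5*, another glucocorticoid-induced gene, at 1.25 were the 2 that were called in the opposite direction, and *Tsc22d3*, also glucocorticoid-induced, was at -0.67 and not called.

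**Figure D4:**
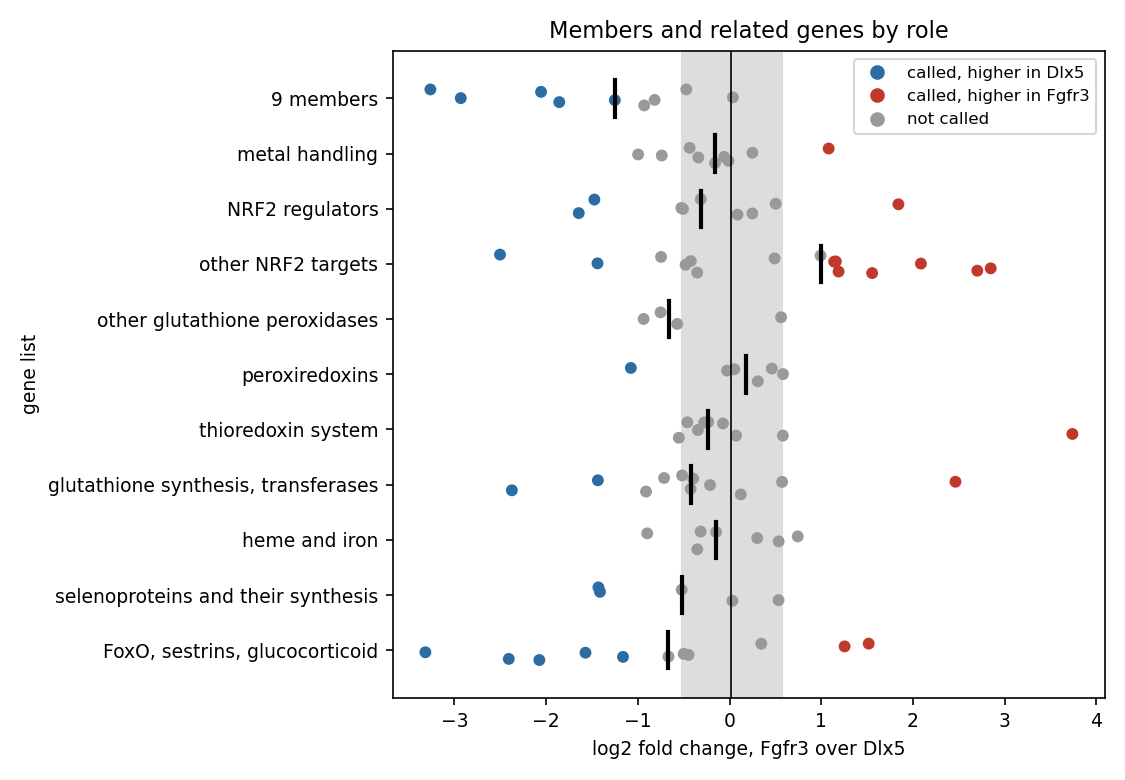
Log2 fold changes, Fgfr3CE-E12.5 over Dlx5CE-E12.5, of the 9 genes and of the related genes tested, by list (one point a gene, shifted up or down at random within its row for legibility). Blue and red points are called genes, grey points are not called, thick ticks are list medians, the thin line is the median of all genes tested and the shaded band their middle quartiles. The 9 genes have a median of -1.25 and the other NRF2 targets of 0.99. Genes that make superoxide are not plotted.

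The makeup of the libraries moved with the lineage. The summed level of 10 marrow stromal markers was 34664, 36666 and 35715 CPM in Dlx5CE-E12.5 cells and 14032 and 9214 CPM in Fgfr3CE-E12.5 cells, most of it *Cxcl12*, and 7 of the 10 were called higher in Dlx5CE-E12.5 cells while *Foxc1* was called higher in Fgfr3CE-E12.5 cells. Summed leukocyte markers were 526 to 693 CPM against 1705 and 3646 CPM, and summed neutrophil markers were 2681 to 3346 CPM against 7499 and 18537 CPM, with 12 of 12 genes of each list called higher in Fgfr3CE-E12.5 cells. Macrophage markers summed to 75.04 to 114 CPM against 188 and 258 CPM, with 5 of 6 tested called higher in Fgfr3CE-E12.5 cells. Erythroid markers ran from 15570 to 31380 CPM against 9960 and 14902 CPM, with 2 of 9 called, both higher in Dlx5CE-E12.5 cells. Chondrocyte markers were 134 to 144 CPM against 3375 and 486 CPM. Of 3 tested, 2 were called higher in Fgfr3CE-E12.5 cells, and *Col9a1* was at 0 counts in every Dlx5CE-E12.5 library. Every Fgfr3CE-E12.5 library lay above for 7 of the 8 markers, with *Col2a1* alone at 2733 and 361 CPM. *Sox9* made up most of the Dlx5CE-E12.5 sums and went the other way, at 131, 123 and 129 CPM against 102 and 56.5 CPM. It was not called (log2 fold change -0.69). B-lineage markers were 880 to 960 CPM against 643 and 633 CPM, and without *Ebf1*, which made up most of the Dlx5CE-E12.5 sums, they were 90.1 to 226 CPM against 241 and 434 CPM, with 3 of 6 tested called higher in Fgfr3CE-E12.5 cells and 1 higher in Dlx5CE-E12.5 cells. Endothelial markers were 31.8 to 52.4 CPM against 39.1 and 52.4 CPM, and osteoclast markers 257 to 307 CPM against 327 and 331 CPM with 1 of 3 tested called higher in Fgfr3CE-E12.5 cells and *Ocstamp*, *Dcstamp* and *Calcr* at 0 in every Dlx5CE-E12.5 library. The part of these differences in the results above was not tested.

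Divided by the summed stromal markers, a measure chosen after seeing the data, the 9 genes separated from one another. The sum is itself higher in every Dlx5CE-E12.5 library, so dividing by it lowers every gene there relative to Fgfr3CE-E12.5 cells. The scale is thus no test of stromal content. *Mt1* was 2.94 to 5.21 CPM per 1000 CPM of stromal markers in Dlx5CE-E12.5 cells and 1.48 to 1.75 in Fgfr3CE-E12.5 cells. *Mt2* was 0.374 to 0.587 against 0.106 to 0.185, so these 2 were higher in every Dlx5CE-E12.5 library on this scale. *Gpx3* (244 to 273 against 166 to 307) and *Sod1* (1.69 to 2.32 against 1.33 to 1.73) overlapped. The other 5, *Sod2*, *Sod3*, *Cat*, *Hmox1* and *Nqo1*, were higher in both Fgfr3CE-E12.5 libraries on this scale, as *Sod2* with 5.48 to 6.10 against 6.75 to 8.80 and *Cat* with 4.07 to 5.91 against 13.7 to 16.3. The Fgfr3CE-E12.5 libraries also differed from each other in these markers, and leaving them out in turn left 7 of the 9 genes called without replicate 2 and 5 without replicate 3, the library with more leukocyte and neutrophil marker RNA.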

How the data were processed

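Bulk RNA-seq of sorted Cxcl12-GFP-high tdTomato+ cells was analysed in 3 Dlx5CE-E12.5 and 2 Fgfr3CE-E12.5 libraries, grouped from the labels. The authors aligned reads to mm10 (TopHat2 2.0.13 and Bowtie2 2.2.1 per the submitters' processing notes, which also name HTSeq) and deposited counts per gene without normalization. A depth-normalized signal (counts over a size factor per library) and DESeq2's rlog values on a log2 scale were deposited too. The counting program's strand setting is not given in the sources used here. The labels name the HiSeq for every library, where the methods differ by lineage.

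Total counts ran from 22035650 to 32563758 in Dlx5CE-E12.5 and from 56355203 to 58166285 in Fgfr3CE-E12.5 libraries, where 3 counts equal 0.0516 to 0.136 CPM, covering counting error only since no molecular identifiers were used. Each library was counted as 1 sample, since the labels number them as replicates and the methods call them biological replicates. No pair of libraries agreed within sampling noise (chi-square per degree of freedom at least 26.4). That value cannot show by itself that the pools were independent.

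Protein-coding genes and reporters that reached 10 CPM in 2 or more libraries entered a fit in edgeR 4.0.16 (R 4.3.3, TMM, quasi-likelihood test, lineage only) with Benjamini-Hochberg adjustment over every gene tested. Standard errors were computed as the log2 fold change over the root of F. The fit was checked on simulated counts with known changes. Gene coordinates, lengths and principal transcripts are from GENCODE M21 on GRCm38, the build mm10 names. Alternatives used DESeq2 1.42.0 and limma 3.58.1 (closing section).

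The 9 genes and all lists were chosen with earlier results of these data known. Of each related list, the called gene with the largest fold in each direction without overlap was named, with any gene that a count of 5 or fewer refers to. Other related genes were named after their values were seen, to complete a count or give a known regulator. For likeness, the 3 nearest genes to the 2 genes of largest fold were named. For the list of genes that make superoxide, the count of calls is not reported here.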

Additional observations from a re-analysis of the deposited data

How the results depend on the processing

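The 9 genes gave 4 to 7 calls, all higher in Dlx5CE-E12.5 cells, under every alternative. *Mt1*, *Mt2*, *Gpx3* and *Sod1* were called in all 19 refits, at -4.13 to -1.28 over these 4 genes. With the trend on transcript length removed, *Mt1* was at -2.46 in place of -2.93 and *Mt2* at -2.71 in place of -3.26. In the same refit *Sod1* was at -1.67 in place of -2.06, and *Gpx3* at -1.93 in place of -1.86. *Sod2* lost its call in edgeR's test against a 2-fold minimum, with limma on the rlog values (-0.83), with the trend on transcript length removed (-0.99) and with trends on GC content and length removed, an alternative chosen after seeing the data (-0.88). The sign of *Cat* turned with the length trend removed (-0.14), with both trends removed (-0.074) and when a library was left out (-0.15 to 0.21), called in none. Related genes called higher in Dlx5CE-E12.5 cells were 9 against the 2-fold minimum, 8 with limma on rlog and 29 without a fold threshold, in place of 14, and those higher in Fgfr3CE-E12.5 cells were 12 against the 2-fold minimum in place of 19. DESeq2's Wald test called 1 of the 9 metal handling genes higher in Dlx5CE-E12.5 cells, where edgeR called 0. Over all genes these settings gave 659, 711 and 2365 in place of 1320, and 1013 against the 2-fold minimum and 2520 without a fold threshold in place of 1655. The share of calls higher in Fgfr3CE-E12.5 cells was 55.6%, and 67.0% with limma on rlog. The median of all genes moved to 0.19 with library size alone and to 0.11 with rlog.

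Mean shares of *Sod1*, *Sod2* and *Sod3* in Dlx5CE-E12.5 cells were 29.8%, 34.5% and 35.7% by exon union, 23.9%, 47.3% and 28.7% by longest transcript and 65.9%, 21.1% and 12.965% by principal transcript. In Fgfr3CE-E12.5 cells they were 17.1%, 34.4% and 48.5%, then 13.7%, 47.3% and 39.0%, then 49.6%, 27.6% and 22.8%. The length used sets these values.

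With the replicate number as a block, 5 of the 9 genes were called, *Mt1* at -3.11 and *Mt2* at -3.37, and no call of the 9 changed. The replicate block is a check only, since the numbers stand for different pools and Dlx5CE-E12.5 replicate 1 has no partner. Deviations of same-numbered libraries correlated at 0.13 and -0.053. A library left alone in its group was assumed to vary like the others. Precision was limited by 2 and 3 libraries, not by counts.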
